A study of Homo sapiens with 22 samples.

Results

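The HSP70 family was followed at the RNA level in MDA-MB-231, an established triple-negative breast cancer (TNBC) cell line. The 9 members were HSPA1A, HSPA1B, HSPA6, HSPA1L, HSPA8, HSPA4, HSPA14, HSPA9 and HSPA13, taken by gene symbol from the 20668 symbols in the RNA-seq files, and all 9 were present. Cells were given vehicle, 100 nM Dex (dexamethasone, a synthetic glucocorticoid) for 2 h or 4 h, or 10 μM CpdA (compound A, a non-steroidal ligand of the glucocorticoid receptor, GR) for 2 h or 4 h. Each of the 5 groups held 2 samples, which the study describes as biological replicates. The p-values therefore rest on the spread within groups of a single cell line, pooled over the 5 groups and shared in part across genes. No time is given in the labels of the 2 vehicle samples, although headings in the study's own gene table name a vehicle for 2 h and for 4 h, so time and replicate cannot be told apart within the vehicle group.

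HSP70 proteins are ATP-driven chaperones that bind short hydrophobic stretches of unfolded protein, with J-domain proteins delivering the substrate and nucleotide exchange factors releasing it. Some members, such as HSPA8, are made at all times, whereas others, such as HSPA1A, HSPA1B and HSPA6, are switched on when misfolded protein frees the heat shock factor HSF1 to bind heat shock elements in their promoters. The family also serves GR directly, because HSP70 and HSP90 act in turn to hold the receptor in a form that can bind its ligand.

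The members were selected on measured values, since the inducible ones were already known to be high with CpdA in these same samples. For the members, values that compare CpdA with vehicle, or the CpdA time points with each other, are therefore given as a description without p-values. The Dex comparisons were tested. All comparisons with vehicle share the same 2 vehicle samples, so the Dex tests against vehicle are not independent of the choice. Levels are given in RPKM, which counts reads relative to transcript length and to the mapped reads of the sample, so that levels of different genes could be set side by side. Tests and fold changes were computed on log2(RPKM + 0.1), a scale that understates the change of genes with low levels, with limma over the 12713 symbols that reached an RPKM of 0.5 in at least 2 samples. Of the 9 members, 8 passed this filter. HSPA6 did so only through its 4 CpdA samples, and HSPA1L did not pass.

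Read totals were not in the files. The size of a single read in RPKM gave a relative depth between 1.0 and 1.21, with both vehicle samples (1.0 and 1.01) below every treated sample. Duplicates had Spearman correlations of 0.985 to 0.987 across genes, against 0.979 to 0.986 between samples of different groups. VIM lay at 1267 RPKM or more, and CD44, EGFR and NR3C1 (the GR gene) at 9.96 or more, in every sample. ESR1 and PGR lay at 0.00484 or less, while ERBB2, the third receptor that defines TNBC, lay between 15.9 and 21.6. Markers of leukocytes (PTPRC), endothelium (PECAM1) and E-cadherin-positive epithelium (CDH1) did not exceed 0.465. TSC22D3, FKBP5 and PER1, which glucocorticoids are known to induce, were all higher in both Dex groups, by 5.10, 4.98 and 4.45 on the log2 scale at 4 h.

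HSPA1A (chr6:31783320-31785723, plus strand, GRCh37), HSPA1B (chr6:31795515-31798031, plus strand) and HSPA6 (chr1:161494330-161496684, plus strand) are single-exon genes. HSPA8 (chr11:122928197-122933938, minus strand) has 9 exons in its main transcript. The 250 bases before the RefSeq transcription start of these 4 genes are shown because they hold heat shock elements, the best-known control sequence of inducible HSP70 genes. Letters run 5′ to 3′ along the strand of the gene, and capitals mark every heat shock element pair, GAANNTTC or TTCNNGAA, with overlapping pairs merged.

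HSPA6 (chr1:161494080-161494329, plus strand): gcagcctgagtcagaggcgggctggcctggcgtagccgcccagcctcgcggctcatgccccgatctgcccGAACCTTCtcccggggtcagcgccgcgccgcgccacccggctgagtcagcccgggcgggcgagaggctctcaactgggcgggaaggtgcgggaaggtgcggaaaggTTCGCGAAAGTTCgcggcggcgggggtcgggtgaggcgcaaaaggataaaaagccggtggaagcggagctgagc
HSPA8 (chr11:122932845-122933094, minus strand): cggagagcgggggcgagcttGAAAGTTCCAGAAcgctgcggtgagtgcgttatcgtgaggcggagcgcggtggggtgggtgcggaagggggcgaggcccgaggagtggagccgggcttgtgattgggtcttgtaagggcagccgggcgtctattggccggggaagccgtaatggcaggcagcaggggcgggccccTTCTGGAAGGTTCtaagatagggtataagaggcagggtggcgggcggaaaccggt
HSPA1A (chr6:31783070-31783319, plus strand): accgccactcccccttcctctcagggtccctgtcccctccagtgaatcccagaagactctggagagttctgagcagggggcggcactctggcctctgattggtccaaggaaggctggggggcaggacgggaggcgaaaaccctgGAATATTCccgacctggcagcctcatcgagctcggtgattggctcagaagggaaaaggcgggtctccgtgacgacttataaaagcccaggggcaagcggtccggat
HSPA1B (chr6:31795265-31795514, plus strand): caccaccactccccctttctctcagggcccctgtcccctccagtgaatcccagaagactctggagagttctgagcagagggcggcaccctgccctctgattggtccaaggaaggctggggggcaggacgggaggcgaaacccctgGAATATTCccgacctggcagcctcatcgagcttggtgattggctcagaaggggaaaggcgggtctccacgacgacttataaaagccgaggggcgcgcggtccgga

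HSPA6 held 3 pairs, 1 of them alone at positions -180 to -173 from the start and the other 2 overlapping as a triplet (3 alternating GAA and TTC units, each 2 bases from the next) at -74 to -62. HSPA8 held 4 pairs, which overlapped as 2 triplets at -230 to -218 and at -55 to -43. Across the 34943 RefSeq promoters of the same length, 11.6% held at least 1 pair on either strand, 0.146% held 3 or more and 0.02% held 4 or more. A triplet was found in 0.441% of them.

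HSPA1A and HSPA1B held the same single pair, at -106 to -99 and -105 to -98, and no triplet. Set against each other without gaps, their promoters were identical at 235 of 249 bases (94.4%). Both also held the TATA box letters TATAAA close to the start, at -30 to -25 and -29 to -24, and 2 CCAAT boxes each. TATAAA was found in 10.8% and CCAAT in 32.0% of all promoters. HSPA1L, the germ line member, starts on the opposite strand with 259 bases between its start and that of HSPA1A, so the 250-base windows of these neighbours cover 241 bases of the same DNA and the pair found for HSPA1L is the HSPA1A pair read from the other side.

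The windows of HSPA4, HSPA9 and HSPA13 held no heat shock element pair. A pair was found for the other 5 of the 8 members with a promoter entry, where 11.6% of all promoters held one. The 5 are not independent, because HSPA1A and HSPA1L share the same pair and the HSPA1B window is a near copy of that of HSPA1A. HSPA14 had no entry. The windows of HSPA8, HSPA9 and HSPA13 lie inside the bounds of the GENCODE gene, whose outermost start is further upstream than the RefSeq start, and sequence before that outer start was not searched. No member window held a glucocorticoid response element, read as GNACA and TGTNC with 3 bases between, which was found in 0.326% of all promoters. At that share a match in any small set of windows is rare, so nothing is read from its absence. These are matches of letters in a short window, and binding was not measured by them.

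**Figure D1:**
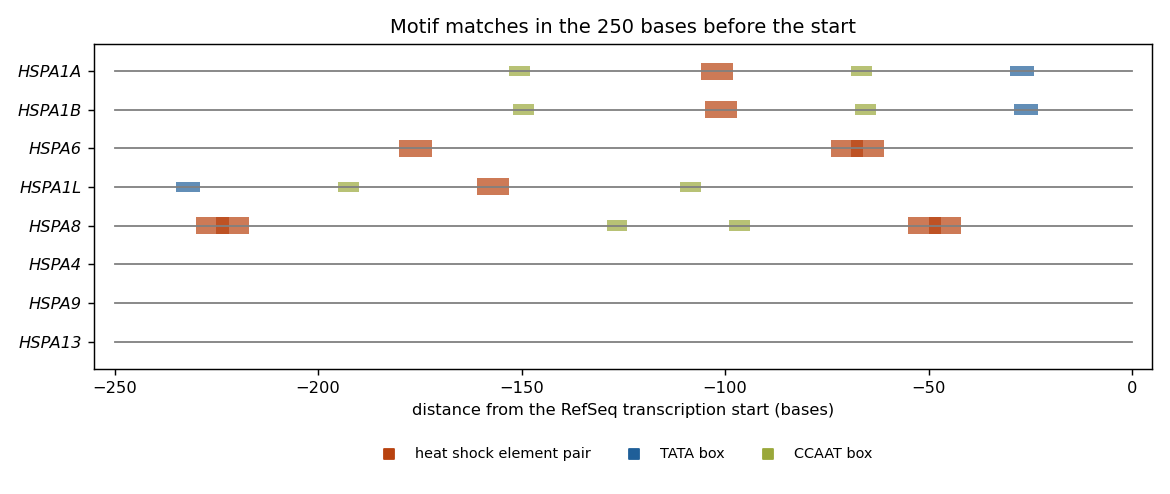
Motif matches in the 250 bases before the RefSeq start of 8 HSP70 family genes, by distance from the start in bases. Each coloured box is a match to a heat shock element pair, TATA box or CCAAT box on either strand. Pairs are seen in HSPA1A, HSPA1B, HSPA6, HSPA1L and HSPA8 and in none of HSPA4, HSPA9 and HSPA13.

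In vehicle-treated cells the family was led by HSPA8, the constitutive cytosolic chaperone HSC70. It lay at 705 and 845 RPKM, a mean of 775 ± 99.3 (SD, n = 2), and was the gene with rank 15 among all symbols. HSPA9, the mitochondrial HSP70 called mortalin, followed at 89.4 ± 3.05 and HSPA4, a large HSP110-type relative that acts as a nucleotide exchange factor, at 60.3 ± 2.49. HSPA13, a microsome-associated member, lay at 26.0 and HSPA14, a ribosome-associated member, at 9.40.

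The inducible members lay at the low end. HSPA1B was at 5.18 ± 0.581 RPKM, HSPA1A at 1.65 ± 0.0348 and HSPA6, the strictly stress-induced member often called HSP70B′, at 0.394 ± 0.0893 (each SD, n = 2). HSPA1L, known chiefly from testis, was lowest at 0.149. In this order no neighbouring members overlapped between their duplicates. HSPA8 made up 78.9% and 81.1% of the summed family level in the 2 vehicle samples, and HSPA1A, HSPA1B and HSPA6 together 0.759% and 0.736%.

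**Figure D2:**
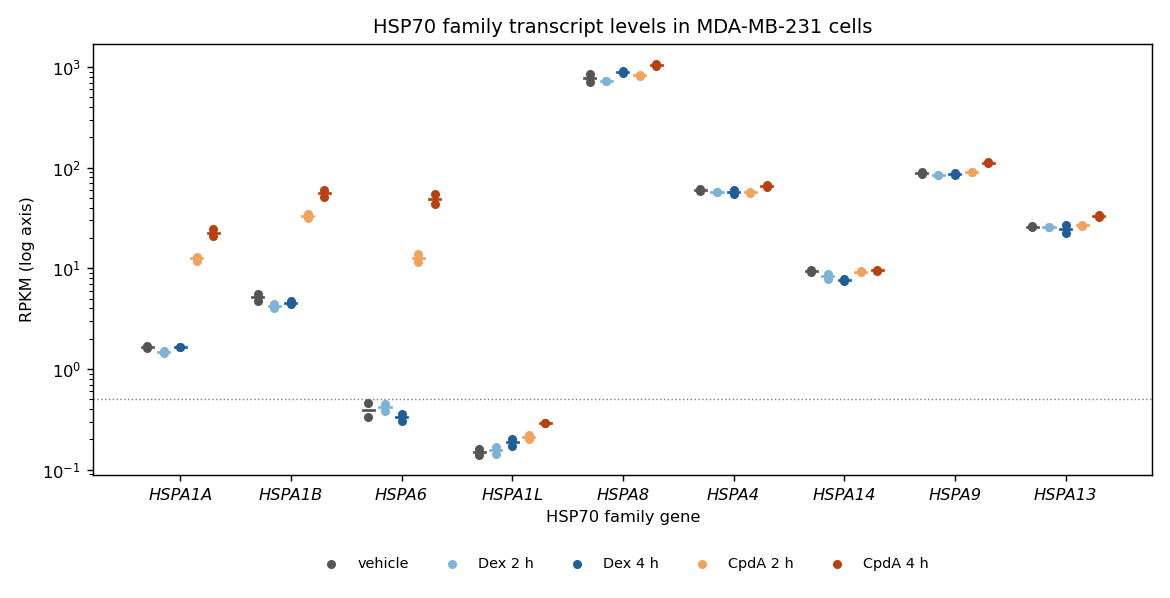
RPKM of the 9 HSP70 family genes in each of the 10 samples, on a log axis. Points are samples, short bars are group means, colours are the 5 groups, and the dotted line is the 0.5 RPKM of the filter. The CpdA points of HSPA1A, HSPA1B and HSPA6 stand above their vehicle and Dex points, and HSPA8 stays above every other member in every group.

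HSPA6 gave the widest range of any member in relative terms. It was listed at 0.331 and 0.457 RPKM with vehicle, 0.386 and 0.451 with Dex at 2 h, 0.360 and 0.302 with Dex at 4 h, 11.6 and 13.8 with CpdA at 2 h, and 43.6 and 54.4 with CpdA at 4 h. Every CpdA sample lay above every vehicle and Dex sample, and both 4 h samples lay above both 2 h samples. In these bulk samples more RNA per cell and more cells with the RNA cannot be told apart. The difference from vehicle was 4.70 (SE 0.16) on the log2(RPKM + 0.1) scale at 2 h and 6.64 (SE 0.16) at 4 h (n = 2 in each group). The size depended on the constant added before taking logarithms, because the vehicle level is low. At 4 h it was 5.16 with a constant of 1 and 6.93 with 0.01, and the plain ratio of mean RPKM was 124.

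HSPA1A was at 1.68 and 1.63 RPKM with vehicle, 1.504 and 1.45 with Dex at 2 h, 1.67 and 1.64 with Dex at 4 h, 12.0 and 13.1 with CpdA at 2 h, and 20.7 and 24.6 with CpdA at 4 h. The CpdA samples again lay apart from all others. Their log2 difference from vehicle was 2.85 (SE 0.086) at 2 h and 3.69 (SE 0.086) at 4 h.

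HSPA1B followed the same course at a higher level, with 4.77 and 5.59 RPKM for vehicle, 4.03 and 4.40 for Dex at 2 h, 4.39 and 4.70 for Dex at 4 h, 31.5 and 34.3 for CpdA at 2 h, and 51.6 and 59.6 for CpdA at 4 h. The log2 difference from vehicle was 2.65 (SE 0.095) at 2 h and 3.40 (SE 0.095) at 4 h. HSPA1B exceeded HSPA1A in every sample. The ratio of their RPKM lay between 2.63 and 3.43 in the vehicle and Dex samples, at 2.63 and 2.62 with CpdA at 2 h, and at 2.48 and 2.43 at 4 h.

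These paralogs are hard to separate by short reads. Of the 2351 stretches of 50 bases in the HSPA1A transcript, 1766 (75.1%) also occur in HSPA1B, and the same stretches make up 71.6% of HSPA1B. How reads in shared stretches were divided is not given in the sources used here, so the split between the pair is uncertain. Their sum was 6.45 and 7.22 RPKM with vehicle, 43.5 and 47.4 with CpdA at 2 h, and 72.3 and 84.1 at 4 h.

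HSPA6 shared 45.8% of its stretches with HSPA7, a neighbouring pseudogene copy. HSPA7 was listed at 0 in both vehicle samples, at 0.0264 and 0.0898 RPKM with CpdA at 2 h, and at 0.291 and 0.276 with CpdA at 4 h. That level stayed below the filter in every sample, and where its reads came from was not tested.

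HSPA1L shared 2.2% of its stretches with HSPA1A. It was listed at 0.138 and 0.159 RPKM with vehicle, 0.201 and 0.221 with CpdA at 2 h, and 0.291 and 0.292 with CpdA at 4 h. The CpdA samples lay highest also for this member, but every value was under the 0.5 RPKM of the filter and no fold change is given.

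Among the constitutive members, HSPA8 gained the most RPKM with CpdA. It lay at 816 and 832 RPKM with CpdA at 2 h, which falls inside the vehicle range of 705 to 845, and at 1030.2 and 1083 with CpdA at 4 h, above every other sample. The log2 difference from vehicle was 0.10 (SE 0.077) at 2 h and 0.45 (SE 0.077) at 4 h. With quantile normalization the difference at 4 h was 0.30 and was not called. The gene hosts the small nucleolar RNAs SNORD14C, SNORD14D and SNORD14E in its introns.

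HSPA9 went from 87.3 and 91.6 RPKM with vehicle to 111.5 and 112.9 with CpdA at 4 h, a log2 difference of 0.33 (SE 0.038). HSPA13 went from 26.1 and 26.0 to 34.0 and 32.6, a difference of 0.35 (SE 0.071). At 2 h these differences were 0.02 and 0.04, so for both genes the higher levels were seen at the later time point.

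HSPA4 lay at 58.5 and 62.1 RPKM with vehicle and at 64.0 and 68.1 with CpdA at 4 h, a log2 difference of 0.13 (SE 0.054). HSPA14 differed least, with 9.13 and 9.68 against 9.71 and 9.47 RPKM and overlapping groups (log2 difference 0.03, SE 0.064).

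At an adjusted p under 0.05, the limma fit called 3 of the 8 members higher with CpdA at 2 h (HSPA1A, HSPA1B and HSPA6), where 1.89% of all 12713 symbols were called higher. At 4 h it called 6 (the same 3 with HSPA8, HSPA9 and HSPA13), where the share over all symbols was 6.76%, and from 2 h to 4 h of CpdA it called 7, where the share was 5.21%. The members were chosen with these contrasts known, and HSPA6 entered only through its CpdA samples, so nothing is read from the counts. At 4 h the count was 5 with quantile normalization, where HSPA8 was not called, and 5 without CpdA 4 h replicate 1, where HSPA13 was not called. The median log2 difference of the 8 members was 0.07 at 2 h and 0.40 at 4 h, and that of all symbols was -0.02 and -0.04. The same limit applies to the medians of the members.

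**Figure D3:**
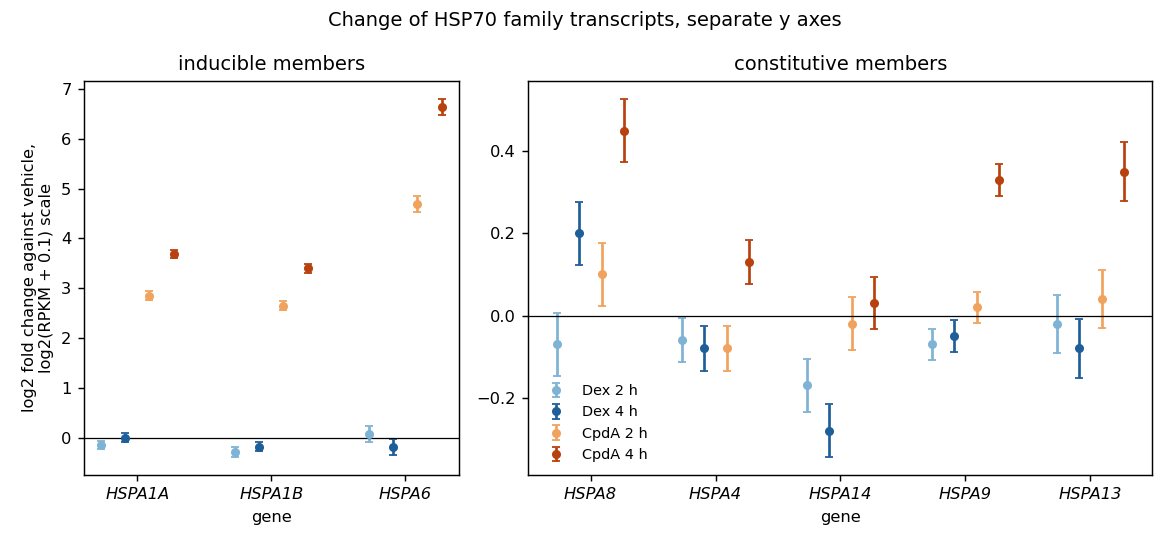
Log2 fold change against vehicle on the log2(RPKM + 0.1) scale for the 3 inducible members (left) and the 5 constitutive members (right) that passed the filter, with separate y axes. Points are limma estimates, bars are their standard errors, and colours are the 4 treatments. CpdA at 4 h gives 3.40 to 6.64 for the inducible members and 0.03 to 0.45 for the constitutive ones.

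The order of the members shifted accordingly. With CpdA at 2 h, HSPA1B (31.5 and 34.3 RPKM) passed HSPA13 (26.3 and 27.0), and HSPA6 (11.6 and 13.8) and HSPA1A (12.0 and 13.1) passed HSPA14 without differing from each other beyond their spread. At 4 h HSPA6 lay in place 5 with 43.6 and 54.4, overlapping HSPA1B at 51.6 and 59.6, and HSPA8, HSPA9 and HSPA4 kept the first 3 places in every group. The share of the inducible members in the family sum was 5.22% and 5.67% at 2 h and 8.49% and 9.59% at 4 h, against 0.608% to 0.759% in the vehicle and Dex samples. HSPA8 fell to 75.4% and 75.0% of the sum at 4 h although its level was at its highest there.

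In RPKM, which is relative to mapped reads, the largest part of the difference between CpdA at 4 h and vehicle was constitutive. That part rests on HSPA8, which lay at 705 and 845 in the 2 vehicle samples. Its change with CpdA at 4 h was not called with quantile normalization. The mean family sum was 967 ± 106 RPKM with vehicle and 1406 ± 55.9 with CpdA at 4 h (SD, n = 2), a difference of 438. HSPA8 made up 282 of this difference (64.3%), HSPA1B 50.4 (11.5%), HSPA6 48.6 (11.1%), HSPA9 22.8 (5.21%) and HSPA1A 21.0 (4.80%). At 2 h the difference was 98.9, of which HSPA8 made up 49.5 and HSPA1B 27.7. The 2 vehicle samples themselves differed by more than that, at 892.5 and 1042 RPKM, and almost all of their gap lay in HSPA8.

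**Figure D4:**
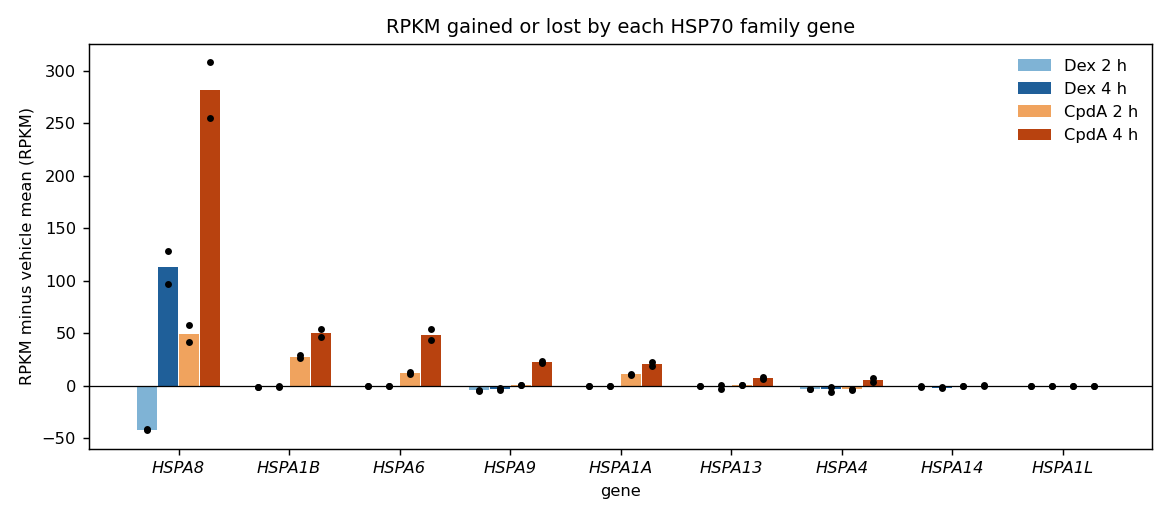
Difference of each member's level from the vehicle mean, in RPKM, for the 4 treatments. Bars are differences of group means and start at 0, and dots are the single treated samples. With CpdA at 4 h the bar of HSPA8 reaches 282, and those of HSPA1B and HSPA6 reach 50.4 and 48.6.

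Dex at 2 h left the family without a called change in the main limma fit, which was by group only. None of the 8 members passed the limma test at an adjusted p under 0.05, where 10.3% of all symbols did, and 2 members (HSPA1B and HSPA14) had an unadjusted p under 0.05. HSPA1B was lower by 0.29 (SE 0.095, adjusted p = 0.106 in limma) and HSPA1A by 0.15 (SE 0.086, adjusted p = 0.361) on the log2 scale, with both Dex samples below both vehicle samples for each gene. The HSPA1B difference ranged from -0.40, without vehicle replicate 1, to -0.17, without vehicle replicate 2. With the replicate number added to the fit as a block, HSPA1B passed (-0.29, SE 0.048, adjusted p = 0.00684 in limma). HSPA6, which passed the filter only through its CpdA samples, differed by 0.08 (SE 0.16) with overlapping groups. No p-value is given for HSPA6, and its place among the 8 without a call is not read as a result. Of the 8 members, 6 lay lower in both Dex samples than in both vehicle samples, as did 31.4% of all symbols.

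With Dex at 4 h, HSPA14 was the 1 member that passed the test in the main fit. It lay at 7.56 and 7.92 RPKM against 9.13 and 9.68 with vehicle, both Dex samples below both vehicle samples. It fell by 0.28 on the log2 scale (SE 0.064, adjusted p = 0.0104 in limma), and 18.2% of all symbols were called lower in this comparison. The call was lost without vehicle replicate 2 (log2 difference -0.24, adjusted p = 0.0603) and with only the 4 samples of the contrast (adjusted p = 0.0745), over a range of 0.00952 to 0.0745 across 19 alternatives. HSPA14 overlaps CDNF on the opposite strand and MSANTD7 on its own, and whether reads were counted by strand is not given in the sources used here.

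Neither HSPA1A nor HSPA1B passed the test with Dex at 4 h in the main fit. The log2 difference was -0.18 (SE 0.095, adjusted p = 0.204 in limma) for HSPA1B and -0.19 (SE 0.16) for HSPA6, again without a p-value for the latter. With the replicate number added to the fit as a block, HSPA1B was called lower (-0.18, SE 0.048, adjusted p = 0.0258 in limma). Its difference ranged from -0.29 to -0.07 when single samples were left out. HSPA1A had nearly equal means, 1.65 RPKM in both groups (adjusted p = 0.995), but the sign of its difference changed with the scaling of the samples. Among the constitutive members HSPA4, HSPA9 and HSPA13 differed by -0.08, -0.05 and -0.08, and none of them passed. HSPA13 did so without Dex 4 h replicate 2 (log2 difference -0.21, adjusted p = 0.00646), with a range of 0.00646 to 0.911 across 19 alternatives.

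HSPA8 differed between the Dex time points, but the call was not stable. It lay at 733 and 732 RPKM after 2 h and at 872 and 904 after 4 h, so the 4 h samples were both higher, by 0.28 on the log2 scale (SE 0.077, adjusted p = 0.0466 in limma). This was the 1 member called between the Dex time points, where 4.55% of all symbols were called higher. It was lost in 12 of 19 alternatives, among them quantile normalization and the leaving out of any single Dex or CpdA sample, with adjusted p from 0.00939 to 0.245. Against vehicle at 705 and 845, neither time point passed, with differences of -0.07 (adjusted p = 0.671) at 2 h and 0.20 (adjusted p = 0.0864) at 4 h, the latter changing sign to -0.08 under quantile normalization. Leaving out single samples moved the 4 h difference between 0.07 and 0.33, the latter without vehicle replicate 2. It passed with the replicate block (0.20, adjusted p = 0.0391 in limma) and with median scaling (0.27, adjusted p = 0.0428). Under quantile normalization the adjusted p was 0.674. The ratio of the 4 h to the 2 h mean was 1.21 with Dex and 1.28 with CpdA, and vehicle replicate 2 exceeded vehicle replicate 1 by the ratio 1.20. The part of the vehicle spread in these differences was not tested.

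The genes that work with HSP70 were described through 6 lists holding 63 genes, of which 57 passed the filter. The lists were drawn up with results of the CpdA comparison known, so their counts and p-values are not independent evidence of a direction. With CpdA at 4 h, 29 of these were called higher and 2 lower, where 6.76% and 13.8% of all symbols were called higher and lower. At 2 h the counts were 11 and 1, where 1.89% and 4.29% were. With Dex, 3 were called higher and 6 lower at 2 h (4.49% and 5.82% of all symbols), and 5 higher and 11 lower at 4 h (9.26% and 18.2%). The median log2 difference over the 57 genes was 0.18 with CpdA and -0.02 with Dex at 4 h. The shares over all symbols also apply to the counts of each list below, which are not read as results about a list. Apart from the heat shock factors, the genes named from each list had the largest called changes at CpdA 4 h or Dex 4 h. Their small p-values follow from this rule and are not read as evidence.

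Among other genes of the HSP70 superfamily, 3 of the 4 that passed the filter rose with CpdA at 4 h. HSPH1, an HSP110 chaperone, was at 27.2 and 29.6 RPKM with vehicle and at 55.9 and 63.5 with CpdA (log2 1.07, SE 0.088, adjusted p = 8.99e-05 in limma). HSPA5, the chaperone BiP of the endoplasmic reticulum, went from 438 and 433 to 806 and 788 (0.87, SE 0.049, adjusted p = 1.4e-05). HYOU1, its large partner in the same compartment, rose by 0.64 (SE 0.06, adjusted p = 0.000173). With Dex at 4 h HSPH1 fell by 0.41 (adjusted p = 0.00728, and 0.0521 without vehicle replicate 2, the highest of 19 alternatives), and HSPA4L, a paralog of HSPA4, fell by 0.65 (adjusted p = 0.000976).

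J-domain co-chaperones bring substrates to HSP70 and trigger its ATPase. Calls with CpdA at 4 h were 9 higher and 1 lower among the 19 tested. DNAJB1, the classical stress-inducible partner of HSPA1A and HSPA8, went from 84.1 and 79.0 RPKM to 287 and 323 (log2 1.90, SE 0.062, adjusted p = 4.23e-07 in limma). DNAJB9, of the endoplasmic reticulum, rose by 1.48 (adjusted p = 9.56e-06), DNAJB4 by 1.21 (adjusted p = 4.64e-05) and DNAJB5 by 0.91 (adjusted p = 0.00092). With Dex at 4 h, 3 of the 19 were called higher and 2 lower, where 9.26% and 18.2% of all symbols were. DNAJB4 was higher with Dex, at 36.8 and 37.6 RPKM against 8.57 and 10.5 with vehicle (log2 1.96, SE 0.086, adjusted p = 3.63e-07), and DNAJB1 was higher by 0.55 (adjusted p = 0.000182).

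Nucleotide exchange factors release ADP and substrate from HSP70. Calls with CpdA at 4 h were 4 higher and 1 lower among 10 tested genes. BAG3, a stress-inducible member that links HSP70 to autophagy, lay higher in every treated sample than in both vehicle samples. It was at 56.7 and 53.9 RPKM with vehicle, 84.9 and 94.1 with CpdA at 4 h (log2 0.69, adjusted p = 7.98e-05 in limma) and 88.3 and 84.8 with Dex at 4 h (0.65, adjusted p = 2.89e-05). BAG2 and GRPEL2 rose by 0.22 (adjusted p = 0.00745) and 0.21 (adjusted p = 0.0313) with CpdA, and BAG5 fell by 0.22 (adjusted p = 0.0148). Of 19 alternatives, 1 lost the call of BAG2 (adjusted p up to 0.0766), 6 that of GRPEL2 (up to 0.204) and 3 that of BAG5 (up to 0.0995). With Dex at 4 h, 1 of the 10 was called higher and 5 lower, where 9.26% and 18.2% of all symbols were. GRPEL2, the mitochondrial exchange factor that serves HSPA9, was lower by 0.36 (log2 -0.36, adjusted p = 0.00148).

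Adaptors between HSP70 and HSP90 and other cofactors were called higher in 7 of 10 cases with CpdA at 4 h, and none was called lower. STUB1 lay lower in both of these CpdA samples than in both vehicle samples, without a call (log2 -0.14, adjusted p = 0.117 in limma). CHORDC1 rose by 0.42 (adjusted p = 0.0334 in limma), AHSA1, an activator of the HSP90 ATPase, by 0.38 (adjusted p = 0.000154), TTC4 by 0.37 (adjusted p = 0.00223) and FKBP4, an immunophilin of the GR complex, by 0.27 (adjusted p = 0.00304). FKBP4 was the 1 gene of this list called with Dex at 4 h, lower by 0.16 (log2 -0.16, adjusted p = 0.0287), and that call was lost in 9 of 19 alternatives (adjusted p up to 0.214), as was that of CHORDC1 with CpdA in 5 of 19 (up to 0.228).

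Other heat shock proteins were called higher in 6 of 9 cases with CpdA at 4 h, and none was called lower. HSPB8, a small heat shock protein that works with BAG3, rose by 1.26 (adjusted p = 7.41e-05 in limma), HSP90AA1 by 0.57 (adjusted p = 8.81e-05), HSPD1, the mitochondrial chaperonin, by 0.43 (adjusted p = 0.000272) and HSP90AB1 by 0.40 (adjusted p = 0.000685). With Dex at 4 h HSPB8 fell by 0.67 (adjusted p = 0.000889) and HSPB1 rose by 0.39 (adjusted p = 0.00307).

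The heat shock factors themselves and their regulators gave 0 calls among 5 tested genes in each of the 4 comparisons with vehicle in limma. At an unadjusted p under 0.05 there were 0 at Dex 2 h, 1 at Dex 4 h (HSF2) and 0 at either CpdA time. HSF1 lay at 56.9 and 62.0 RPKM with vehicle and at 59.1 and 58.3 with CpdA at 4 h, so the groups overlapped. Its regulation by trimer formation and phosphorylation is not read by transcript levels.

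**Figure D5:**
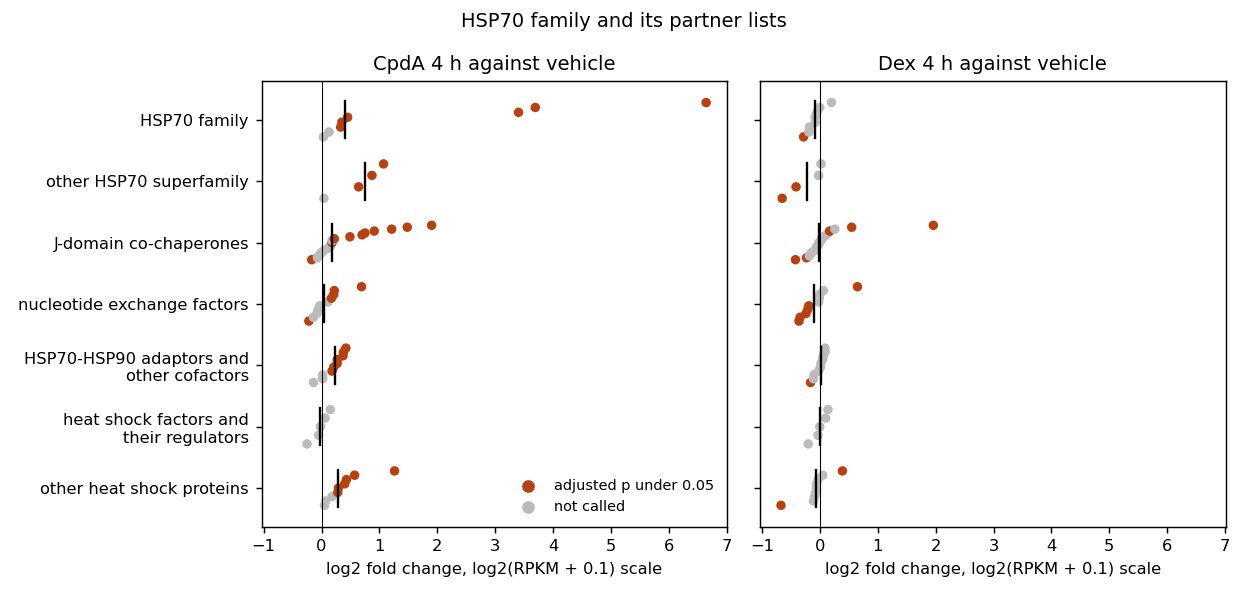
Log2 fold change against vehicle, on the log2(RPKM + 0.1) scale, of the HSP70 members and of the 6 lists of related genes, for CpdA at 4 h (left) and Dex at 4 h (right). Each dot is a gene, red dots have an adjusted p under 0.05 in limma, grey dots do not, and black bars are list medians. With CpdA the members, chosen with this contrast known, have a median of 0.40 and the heat shock factors one of -0.02. With Dex the highest dot is DNAJB4 at 1.96.

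The genes whose levels followed the inducible members most closely were found by Pearson correlation of log2(RPKM + 0.1) over the 10 samples, among 954 symbols whose group means spanned at least 1 on the log2 scale. The 10 points share 5 groups and are not independent, so r is a description. For HSPA6 the closest were HMOX1, the haem oxygenase of the oxidative stress response (r = 0.974), DDIT3, the stress factor CHOP (0.970), the growth factor AREG (0.967), MXD1 (0.962) and ADM (0.961). For HSPA1A they were DDIT3 (0.981), AREG (0.975), HMOX1 (0.966), MXD1 (0.963) and FOS (0.959). HMOX1 was at a mean of 15.7 RPKM with vehicle, 8.21 with Dex at 4 h and 103 with CpdA at 4 h.

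The neighbours of HSPA8 were searched among 12705 symbols without a limit on span. Since the candidates differ, this set cannot be compared with those of HSPA6 and HSPA1A. The closest to HSPA8 were ABHD17B (r = 0.981), SH3BP5-AS1 (0.970), UBE2D3 (0.969), LRRC59 (0.961) and TESK1 (0.953). Their log2 differences from vehicle with CpdA at 4 h ran from 0.12 for UBE2D3, at 43.8 RPKM with vehicle and 47.5 with CpdA, to 0.82 for SH3BP5-AS1, at 0.567 and 1.08.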

How the data were processed

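RNA-seq of 10 of the 22 samples was analysed, and the 12 ChIP samples were not analysed here. The authors sequenced single-end reads, aligned them with TopHat2 2.0.13 and estimated abundances in Partek 6.6 (hg19 is named in the submitters' processing notes), and deposited RPKM per gene symbol. How transcripts were combined into symbols is not given in the sources used here. RPKM divides by mapped reads, so a large change in a few genes shifts all others.

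Groups came from the labels. The members, lists and naming rule (from each list up to 4 called genes with the largest change at CpdA 4 h and up to 2 at Dex 4 h) were chosen with earlier results of these data known. From the RPKM, log2(RPKM + 0.1) was fitted by group over all 10 samples with limma 3.58.1 in R 4.3.3 (eBayes with abundance trend), with Benjamini-Hochberg adjustment over 12713 symbols. The fit was tested on simulated data. The files hold no read totals, so no counting intervals are given. RefSeq promoters were placed on GRCh37 by exact match, and transcripts were GENCODE models on GRCh37. Alternatives were other pseudocounts, filters and scalings, no trend, 4-sample fits, a replicate block, leaving out each sample, and HSPA1A with HSPA1B summed. Tables used Python 3.11.15.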

Additional observations from a re-analysis of the deposited data

Results flagged for a closer look

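HSPA8 was the 1 member called between 4 h and 2 h of Dex, by 0.28 on the log2 scale (SE 0.077, adjusted p = 0.0466 in limma, both 4 h samples above both 2 h samples). Both Dex groups share the same 2 vehicle samples, so a change in the effect of Dex cannot be told apart from time itself. The call was lost in 12 of 19 alternatives, among them the leaving out of any single Dex or CpdA sample, over which the adjusted p ranged from 0.00939 to 0.245 and the difference from 0.23 to 0.33. The same gene differed between the vehicle duplicates by the ratio 1.20, close to the ratio of 1.21 between the Dex time points, and the part of this spread was not tested.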

How the results depend on the processing

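The counts of members called with CpdA stayed within 1.5 times of those reported (2 to 3 at 2 h and 5 to 7 at 4 h over 20 alternatives), and the directions of the called members did not change. The members were chosen with the CpdA contrasts known, so this stability is not read as evidence. Single calls at CpdA 4 h did change, with HSPA8 not called under quantile normalization and HSPA4 called under median scaling. The Dex counts moved. At Dex 2 h the count of 0 became 1 with the replicate block and ranged from 0 to 1 when single samples were left out (1 without vehicle replicate 1). At Dex 4 h the count of 1 became 2 with median scaling, 0 with only the 4 samples of the contrast and 3 with the replicate block, and ranged from 1 to 2 when single samples were left out (2 without Dex 4 h replicate 2). Between the Dex time points the count of 1 became 0 with no filter, quantile normalization, no abundance trend or only the 4 samples of the contrast, and ranged from 0 to 1 when single samples were left out (1 without either vehicle sample, 1 without Dex 4 h replicate 2, where HSPA13 was called in place of HSPA8, and 0 without any other single sample). The labels do not say whether the replicate numbers pair the samples. Deviations of same-numbered samples correlated at -0.0568 to 0.198 with 3 of 10 group pairs over 0.1. These values do not settle whether the numbers pair the samples. With the replicate block, HSPA1B was called at Dex 2 h (adjusted p = 0.00684 in limma), and HSPA1B (0.0258) and HSPA8 (0.0391) joined HSPA14 at Dex 4 h, over ranges across all alternatives of 0.00684 to 0.521, 0.0258 to 0.684 and 0.00593 to 0.674.

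Members that were not called changed sign in some alternatives. Quantile normalization gave 0.00 for HSPA13 at Dex 2 h, 0.13 for HSPA1A at Dex 4 h and -0.08 for HSPA8 at Dex 4 h. Median scaling gave 0.07 for HSPA1A and 0.02 for HSPA9 at Dex 4 h, and 0.04 for HSPA4 between the Dex time points. Leaving out single samples gave ranges of -0.11 to 0.26 for HSPA6 and -0.21 to 0.06 for HSPA8 at Dex 2 h, -0.02 to 0.02 for HSPA1A and -0.21 to 0.04 for HSPA13 at Dex 4 h, and -0.08 to 0.05 for HSPA4 and -0.19 to 0.06 for HSPA13 between the time points. The cause was not tested.

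Genes of the 6 lists were called 9 times at Dex 2 h (4 to 13 when single samples were left out, 4 without Dex 2 h replicate 1), 16 times at Dex 4 h (10 with only the 4 samples of the contrast), and 12 times at CpdA 2 h (4 to 17, with 7 without vehicle replicate 2, 5 without CpdA 2 h replicate 1 and 4 without CpdA 2 h replicate 2). The share of calls over all symbols that were higher also depended on scaling. It was 33.8% at Dex 4 h against 44.8% with quantile normalization and 49.9% with median scaling, 33.0% at CpdA 4 h against 46.8% and 55.8%, 33.5% between the Dex times against 47.7% and 53.3%, 30.5% at CpdA 2 h against 44.6% with median scaling, and 42.0% between the CpdA times against 54.6%. A filter of 1 RPKM in every sample leaves HSPA6 out.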
